A study of Mus musculus with 8 samples.

Results

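T cell receptor chains are encoded by 4 loci, alpha, beta, gamma and delta, whose variable (V), diversity (D), joining (J) and constant (C) segments were measured here as separate rows of a gene expression array. Members were all rows with a symbol built as Tra, Trb, Trg or Trd followed by a V, J or D number, a C number or a final C. The pattern found 164 of the 24675 rows with 1 gene symbol. No measured value enters the pattern, but the family itself was chosen by the high ventral values of Trac, the alpha constant region, in these same arrays. Differences of members between the tissues are therefore given as descriptions, with no test drawn from them.

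The study took tissue from beneath (ventral) and from above (dorsal, up to the notochord) the dorsal aorta of C57Bl/6 mouse embryos at embryonic day 12.5. In the mouse embryo, blood stem cells arise in the wall of the aorta. There were 4 arrays (Affymetrix Mouse Gene 2.0 ST) of ventral and 4 of dorsal tissue, numbered 1 to 4 in each, prepared after laser microdissection of unfixed frozen sections and amplification of 200 to 1000 pg of total RNA. The labels name no mutation and no treatment. Values are log2 RMA intensities, a background-corrected and between-array normalised brightness, and the arrays' medians over all rows lay between 3.59 and 3.65. All differences are ventral minus dorsal on this scale. The labels were checked on 6 genes of sclerotome, the vertebra-forming part of the somite, whose mean lay between 4.43 and 4.75 on ventral and 5.75 and 7.16 on dorsal arrays, and on 6 genes of visceral mesenchyme, at 5.28 to 6.98 on ventral and 4.38 to 5.26 on dorsal arrays. Of the 6 visceral mesenchyme genes, 5 had a higher ventral mean, and Foxf1 had a lower one (-0.44, SE 0.35). In bulk tissue, fewer cells of a type and less RNA per cell cannot be told apart.

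In T cells, recombination by the Rag proteins cuts the DNA and joins a V segment, in beta and delta also a D segment, to a J segment, and splicing then joins the rearranged exon to the constant region. Unrearranged loci can also be transcribed from promoters that lie ahead of D, J or C segments, which gives germline transcripts that encode no receptor. The receptor reaches the cell surface only with the CD3 proteins. In the mouse, the delta locus lies inside the alpha locus on chromosome 14, the beta locus is on chromosome 6 and the gamma locus on chromosome 13.

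The members comprised 103 rows of alpha, 39 of beta, 15 of gamma and 7 of delta, or 80 V, 77 J and 7 C segments. The pattern found no D segment and no delta constant region. Of the V rows, 4 carry a name shared by alpha and delta and are counted with alpha by their first name. The RefSeq annotation calls 11 members pseudogenes. Most rows lay low on the arrays. The value exceeded the array's median on none of the 8 arrays for 106 members and on all 8 for 22. Of the 164 members, 39 (23.8%) exceeded it on at least 4 arrays, the condition for entering the fit, against 50.3% of all named rows. These 39 were 21 of alpha, 13 of beta, 3 of gamma and 2 of delta. Trac and Traj52 passed with exactly 4 arrays, and Traj28 and Traj12 missed with 3. For Trac the 4 arrays were the ventral ones, so its own high group let it pass. Traj11, Traj18 and Traj48 exceeded the median on all 4 ventral arrays and 1 dorsal array, so their ventral values alone also met the condition. No member has a sequence in the reference tables used here, so none is printed.

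The constant regions differed from each other in their pattern. Trac, which encodes the constant domain of the alpha chain, had 7.15, 10.12, 10.13 and 9.35 in ventral replicates 1 to 4, against 3.44, 2.89, 2.76 and 2.75 in dorsal replicates 1 to 4. Every ventral value lay far above every dorsal value, and ventral replicate 1 stood lowest of its tissue. Over all rows of each array, Trac ranked at the 93.5th, 99.5th, 99.5th and 99.0th percentile on ventral arrays, and at the 45.8th, 29.6th, 23.8th and 22.3rd on dorsal arrays. It was thus near the top of the ventral arrays and in the lower part of the dorsal ones. The difference was 6.23 (SE 0.58 in limma, blocked by replicate number). The dorsal values lay under the array medians, where background limits what can be measured, so no fold is given.

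The beta constant regions lay above the median on all 8 arrays and overlapped between the tissues. Trbc1 had 7.90, 6.64, 6.27 and 5.80 in ventral tissue, against 5.78, 6.09, 6.70 and 6.15 in dorsal tissue. Its highest value, in ventral replicate 1, came from the array where Trac was lowest of the ventral arrays. Trbc2 had 5.42, 5.93, 5.87 and 5.99 in ventral tissue, against 6.09, 5.78, 6.21 and 5.99 in dorsal tissue. The differences were 0.47 (SE 0.42) for Trbc1 and -0.21 (SE 0.20) for Trbc2. The 2 beta constant regions are near copies of each other, as are several of gamma, and how the array definition divides their shared probes is not given in the sources used here, so their separate levels are uncertain.

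The gamma constant regions exceeded the median on none of the 8 arrays. Trgc1 ranged from 1.84 to 2.54 in ventral and from 2.00 to 2.20 in dorsal tissue, Trgc2 from 2.42 to 2.87 and from 2.35 to 2.67, Trgc3 from 2.07 to 2.38 and from 2.13 to 2.27, and Trgc4 averaged 3.27 ± 0.17 in ventral and 3.08 ± 0.12 in dorsal tissue (SD, n = 4 each). The tissues overlapped for all 4 genes.

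**Figure D1:**
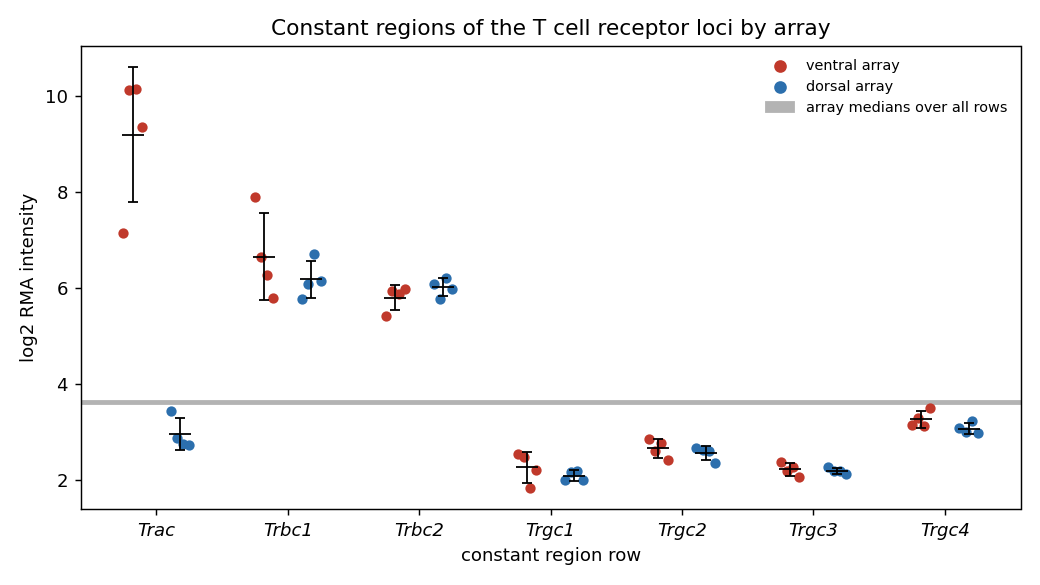
Log2 RMA intensity of the 7 constant region rows on each of the 4 ventral and 4 dorsal arrays, replicates 1 to 4 from left to right within a tissue, with the mean and SD in black and the array medians over all rows (3.59 to 3.65) as a grey band. Trac lies at 7.15 to 10.13 on ventral arrays and below the grey band on dorsal arrays, while the beta and gamma rows overlap between the tissues.

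The J segments of alpha, short exons of which a rearranged gene uses a single one, held most of the other large ventral values. Traj11 had 5.06, 9.64, 9.50 and 8.41 in ventral tissue, against 3.03, 2.65, 3.59 and 6.69 in dorsal tissue. Its ventral replicates 2 to 4 exceeded all dorsal values, but ventral replicate 1 lay under dorsal replicate 4, so the tissues overlapped. The difference was 4.16 (SE 0.89). Traj38 had 2.13, 6.79, 5.50 and 2.03 in ventral tissue, against 2.17, 2.20, 1.96 and 2.24 in dorsal tissue. Ventral replicates 2 and 3 thus stood high while ventral replicates 1 and 4 were as low as the dorsal arrays. Traj18 had 6.11, 4.85, 4.45 and 4.61 in ventral tissue, against 6.59, 2.27, 2.72 and 2.28 in dorsal tissue. All 4 ventral values were above 3 of the dorsal ones, and dorsal replicate 1 was the highest of the 8. Traj49 had 2.54, 4.37, 4.02 and 2.70 in ventral tissue, against 1.89, 2.08, 2.23 and 2.12 in dorsal tissue, with no overlap.

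These high values fell on different J rows in different ventral arrays. A value was counted as apart when it lay at least 1 above the highest value of the other tissue, a limit chosen after the data were seen. Of the 57 alpha J rows, 15 had at least 1 ventral array apart, with 20 such values in all, and 1 row, Traj52, had a dorsal array apart, at 4.83 in dorsal replicate 2. Over all named rows, 2.15% had a ventral array apart and 2.15% a dorsal one. Among named rows under the filter, where most alpha J rows lie, the percentages were 1.6 and 1.78. Ventral replicate 1 was apart in 2 rows, Traj48 (5.78) and Traj13 (5.46). Ventral replicate 2 was apart in 7 rows, among them Traj22 (6.40), Traj12 (5.82) and Traj38. Ventral replicate 3 was apart in 7 rows, among them Traj41 (5.26), Traj21 (4.99) and Traj31 (4.58). Ventral replicate 4 was apart in 4 rows, among them Traj12 (6.08), Traj23 (4.83) and Traj61 (3.66), an annotated pseudogene. Of the 15 rows, 11 were reached by a single ventral array, 3 (Traj49, Traj38 and Traj12) by 2 arrays and only Traj11 by 3. The array with the fewest rows apart, ventral replicate 1, was also the one with the lowest ventral Trac value.

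In chromosomal order the alpha J rows run from Traj61 to Traj2, with Trac after them. The 15 rows with a ventral array apart were spread along the cluster. They included 6 of the first 28 rows (Traj61 to Traj33) and 9 of the last 29 (Traj32 to Traj2). Nearest to Trac was Traj3, at 3.49 in ventral replicate 2 under the array median. A ventral array apart was found in 14 of the 50 alpha J rows not annotated as pseudogenes and in 1 of the 7 annotated ones. The largest mean difference on the dorsal side of the cluster was that of Traj52 (-0.35). Traj8, an annotated pseudogene, had 4.24, 4.68, 4.17 and 4.58 in ventral tissue, against 4.62, 4.80, 4.89 and 4.70 in dorsal tissue, a difference of -0.33 with overlapping values.

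**Figure D2:**
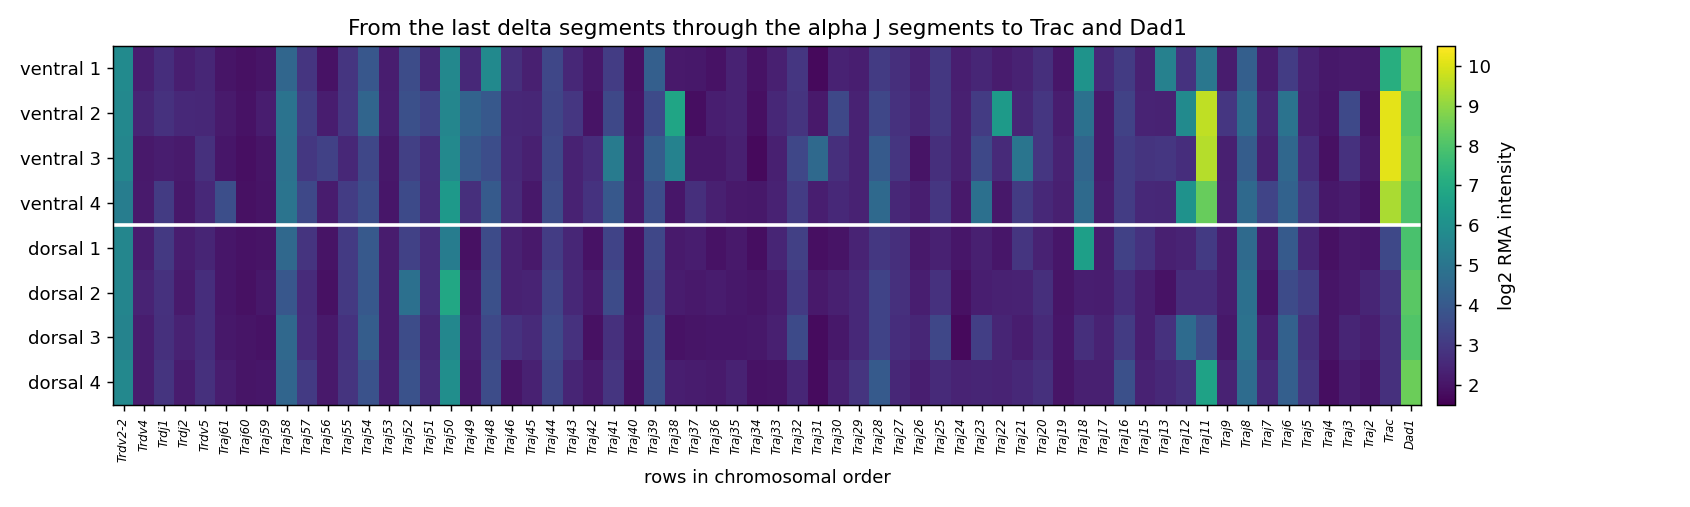
Log2 RMA intensity (colour) of rows in chromosomal order along the x axis, from the delta segment Trdv2-2 through all alpha J rows to Trac and its neighbour Dad1, on the 4 ventral arrays (above the white line) and the 4 dorsal arrays. Trac is bright on the ventral arrays only, Traj11 on the ventral arrays and dorsal replicate 4, rows such as Traj38 and Traj22 on 1 or 2 ventral arrays, and rows such as Traj50 on all 8, while Dad1 lies at 7.90 to 8.61 on all 8.

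Among the 20 J rows of beta, gamma and delta, 0 had a ventral array and 0 a dorsal array apart. Beside 2.15% of all named rows in each direction, 20 rows are too few to set them apart from the background. In beta, Trbj1-6 was high on every array, at 7.20, 7.46, 7.97 and 7.42 in ventral tissue, against 7.24, 8.32, 7.48 and 7.87 in dorsal tissue. Trbj1-2 had the lowest difference of all members, -0.52 (SE 0.26), with 4.16, 4.21, 5.34 and 4.40 in ventral tissue, against 5.41, 4.86, 5.08 and 4.84 in dorsal tissue. Ventral replicate 3 lay inside the dorsal range. Trbj2-1 was at 4.86 to 5.64 in ventral and 4.61 to 5.03 in dorsal tissue. Trgj4 had 1.83, 2.81, 2.56 and 2.56 in ventral tissue, against 2.70, 2.73, 2.86 and 2.83 in dorsal tissue, all under the array medians. The delta rows Trdj1 and Trdj2, which lie on the same chromosome just ahead of the alpha J cluster, had differences between -0.16 and 0.02.

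V segments, which supply most of the antigen-binding domain, were close between the tissues. The median difference was 0.03 over 45 alpha V rows, -0.01 over 23 beta V rows, -0.12 over 7 gamma V rows and -0.02 over 5 delta V rows, against -0.00058 over all named rows. Of the 80 V rows, 1 had a ventral array apart and 0 had a dorsal array apart, beside 2.15% of all named rows in each direction. That row, Trav7-3, had 6.05, 6.17, 4.12 and 4.89 in ventral tissue, against 5.14, 3.48, 4.46 and 4.09 in dorsal tissue. Its difference of 1.01 (SE 0.44) was the only one of a V row above 0.5, and the tissues overlapped. Some V rows lay well above the median in both tissues without a wide difference. Trav13-2 averaged 6.73 ± 0.46 in ventral and 6.86 ± 0.08 in dorsal tissue, Trav6d-4 6.15 ± 0.33 and 5.87 ± 0.11, and Trdv2-2 5.61 ± 0.20 and 5.61 ± 0.09 (SD, n = 4 each). Trgv1 averaged 6.51 ± 0.17 in ventral and 6.84 ± 0.22 in dorsal tissue and was lower in ventral tissue in 4 of 4 replicate numbers, by 0.33 in the mean. The alpha locus of this strain holds repeated V copies, named with d or n, which make 14 of the members. Their probes may be shared with their near copies.

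Taken locus by locus, the alpha J rows had a median difference of 0.17, with 42 of 57 higher in ventral tissue, against 0.03 and 28 of 45 for the alpha V rows. The medians of the loci were 0.09 for alpha, -0.02 for beta, 0.03 for gamma and -0.02 for delta. Leaving out 1 replicate number or 1 array changed the sign for beta (-0.058 to 0.0242) and for delta (-0.0939 to 0.0133). Higher means in ventral tissue were found for 71 of 103 alpha, 17 of 39 beta, 9 of 15 gamma and 2 of 7 delta rows, beside 49.9% of all named rows. Over all members the median was 0.04 (0.0057 to 0.0682 without 1 replicate number), and over the 106 members outside Trac and the alpha J rows it was 0.01, with 56 higher. Most of these rows lie under the array medians, where small differences are within the spread of single arrays (median SD over the members 0.21 in ventral and 0.16 in dorsal tissue). Of the 8 members with a difference of 1 or more, 6 were alpha J rows (Traj11, Traj38, Traj18, Traj49, Traj12 and Traj22), beside Trac and Trav7-3. A difference that wide in the ventral direction was found for 0.543% of all named rows, and for 0 of the 207 immunoglobulin segment rows, the most similar kind of row on the array. Only 6 of the 207 are J rows, too few to compare with the 57 alpha J rows. The differences of these 6 ran from -0.23 to 0.72. The immunoglobulin rows together had a median difference of 0.0034. An array of either tissue was apart in 0 of them, beside 2.15% of all named rows in each direction.

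**Figure D3:**
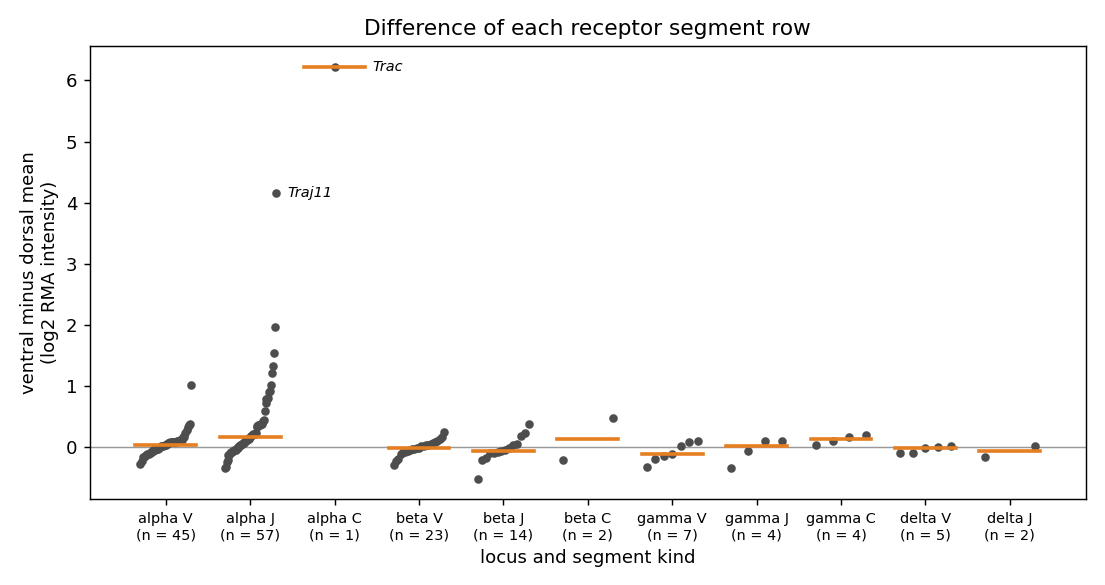
Ventral minus dorsal mean (log2 RMA intensity, y axis) of every member, sorted within each locus and segment kind along the x axis, with the median of each kind as an orange line. Trac (6.23) and Traj11 (4.16) stand above the rest, the alpha J rows reach further up than any other kind but Trac's, and the beta, gamma and delta rows stay between -0.52 and 0.47.

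In limma's fit across the 12416 genes tested, blocked by replicate number, 0 of the 39 members tested were called at an adjusted p under 0.05 (Benjamini-Hochberg), as were 0.0% of all genes tested. At an unadjusted p under 0.05, 3 members were higher in ventral tissue (Trac, Traj11 and Traj18) and 0 were lower, beside 4.08% and 4.18% of all genes tested. Without the block 1 member, Trac, was called at an adjusted p under 0.05, beside 0.0322% of all genes. Since Trac's difference led to the choice of the family, nothing is read from these counts. All 4 ventral values lay above all 4 dorsal ones in 5 members, all of alpha (Trac, Traj49, Traj30, Traj19 and Trav12-2), and below them in 2 (Traj29 and Trbv14), beside 1.81% and 1.84% of all named rows. Of these 7, only Trac entered the fit.

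Other genes of T cells stayed low in both tissues. Of 28 genes for the CD3 proteins, other T cell surface and signalling proteins, the pre-T cell receptor and the recombinase, 23 exceeded the array median on no array and 4 entered the fit. None of these 4 had an unadjusted p under 0.05, beside 4.08% higher and 4.18% lower among all genes tested. Of the 28, 0 had an array of either tissue apart, beside 2.15% of all named rows in each direction. Both sets are too small to be set apart from these shares. The receptor's partner Cd3e had 2.74, 2.96, 2.87 and 2.79 in ventral tissue, against 2.65, 2.86, 2.75 and 2.86 in dorsal tissue. Cd3g had 2.64, 2.51, 2.37 and 2.58 in ventral tissue, against 2.26, 2.28, 2.21 and 2.63 in dorsal tissue. Cd3d and Cd247 overlapped likewise, with differences of -0.05 and -0.04. The means of the 4 CD3 genes ranged from 2.80 to 3.05 on ventral and from 2.71 to 2.92 on dorsal arrays. The recombinase gene Rag1 lay at 2.83 to 3.31 in ventral and 2.77 to 2.95 in dorsal tissue, and Rag2 at 2.55 to 2.76 and 2.57 to 2.75. The kinase Zap70, which carries the receptor's signal, lay at 2.93 to 3.20 in ventral and 2.88 to 3.20 in dorsal tissue, and Ptprc (CD45), present on nearly all white blood cells, at 2.84 to 3.26 and 2.87 to 3.36. Ptcra, the partner of the beta chain before alpha is made, lay above the medians at 4.15 to 4.32 in ventral and 3.95 to 4.36 in dorsal tissue. The widest difference among the 28 was 0.52 (SE 0.24) for the adaptor Lcp2, which myeloid cells also express.

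**Figure D4:**
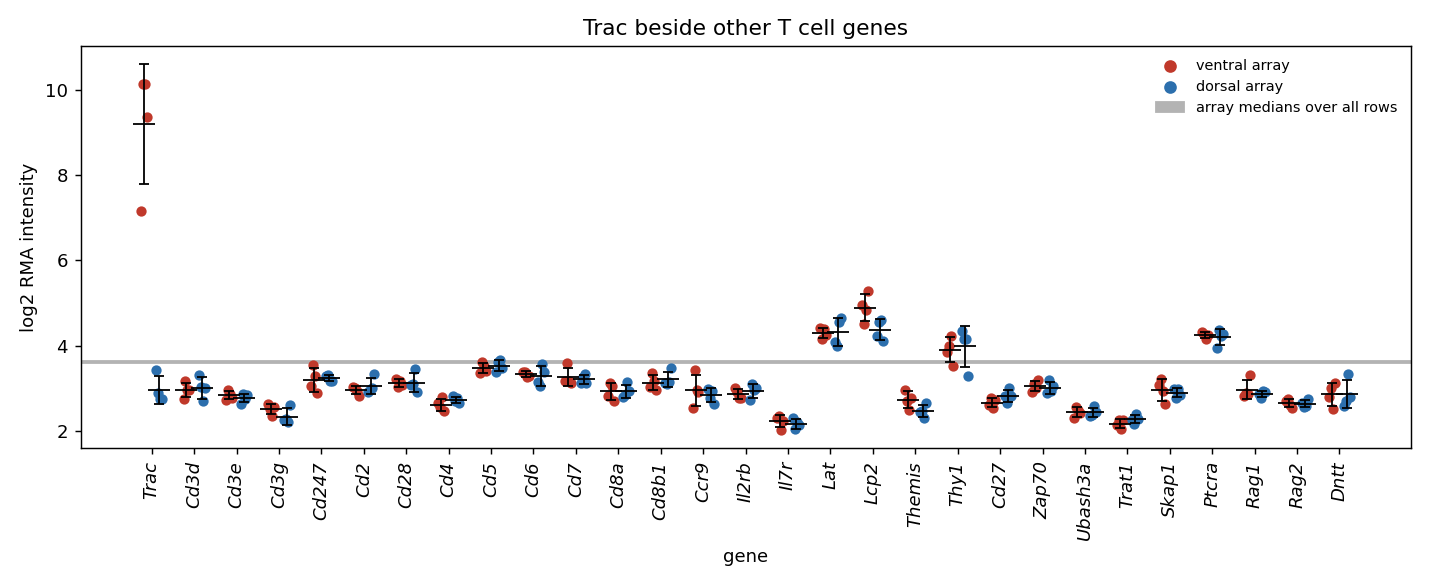
Log2 RMA intensity of Trac and of 28 other T cell genes on each ventral and dorsal array, with the mean and SD in black and the array medians over all rows as a grey band. Trac alone stands high on ventral arrays (7.15 to 10.13), while 23 of the 28 other genes stay under each array's own median.

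Transcription factors of the T lineage and of the receptor gene enhancers were mostly above the array medians. Of 17 in the table, 15 were tested and 0 were called at an adjusted p under 0.05, as was no gene in that fit. At an unadjusted p under 0.05, 0 were higher and 2 lower in ventral tissue, beside 4.08% and 4.18% of all genes tested. These were Tox (-0.83, SE 0.29) and Bcl11b (-0.61, SE 0.21). In both, all 4 ventral values lay below all 4 dorsal ones, beside 1.84% of all named rows. For Bcl11b the margin was narrow, with ventral values up to 4.805 and dorsal values from 4.817. Runx1, a factor of blood stem cells that also binds the alpha enhancer, had 2.94, 4.66, 5.47 and 4.46 in ventral tissue, against 3.70, 3.80, 3.72 and 3.57 in dorsal tissue. Ventral replicate 1 was the lowest of the 8 and the other ventral arrays were the highest. The difference was 0.69 (SE 0.37), and a link between Runx1 and the alpha values was not tested. Tcf12 had a difference of -0.29 (SE 0.19), Notch1 of -0.35 (SE 0.24), Ets1 of 0.22 (SE 0.17) and Gata3 of 0.12 (SE 0.22). Of the 17 factors, 6 had a higher ventral mean, and the median difference was -0.08. Of the genes for the joining of DNA ends, 4 were tested and 0 had an unadjusted p under 0.05.

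Markers of some other cells were higher in ventral tissue. All 10 macrophage genes had higher ventral means, beside 49.9% of all named rows. Of these 10, 3 were at an unadjusted p under 0.05 and 0 at an adjusted p under 0.05. Their mean ranged from 4.78 to 5.48 on ventral and from 4.29 to 4.87 on dorsal arrays. The macrophage mean was highest on ventral replicate 1. Of 8 general leukocyte genes 6 were higher, beside the same 49.9%, and 1 (Spi1) had an unadjusted p under 0.05. Their mean ranged from 3.98 to 4.17 on ventral and from 3.505 to 4.04 on dorsal arrays. The part of these cells in the alpha values was not tested. For natural killer and innate lymphoid cells and for thymic epithelium, 4 of 8 and 2 of 4 genes were tested and 0 had an unadjusted p under 0.05. Of 6 B cell genes in the table, 1 was tested, Ebf1 (-1.89, SE 0.40), which is also active in mesenchyme. Of 6 endothelial genes, 1 (Kdr) was higher and 0 lower at an unadjusted p under 0.05. Over all genes tested, 4.08% were higher and 4.18% lower at this limit. With so few genes in a list, counts of 0 or 1 cannot be set apart from these shares.

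The genes next to the alpha and delta loci did not share the ventral values. Dad1, which follows Trac on the chromosome, had 8.61, 8.11, 8.29 and 7.96 in ventral tissue, against 7.90, 8.19, 8.04 and 8.49 in dorsal tissue. Abhd4, the next gene after it in the table, lay at 3.38 to 3.84 in ventral and 3.32 to 3.91 in dorsal tissue. The olfactory receptor genes ahead of the locus and within it (Olfr1507 to Olfr1512) exceeded the array median on none of the 8 arrays. Around beta, Ephb6 differed by 0.33 and Trpv6 by -0.06, and around gamma, Stard3nl differed by -0.03, Vps41 by -0.12 and Sfrp4 by 0.57, with overlapping values in all 3. Amph, the gene nearest to gamma on its other side, differed by 0.44, with 2.88, 2.98, 3.27 and 4.60 in ventral tissue, against 3.59, 2.61, 2.93 and 2.84 in dorsal tissue. Its ventral replicate 4 was apart by the limit used above.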

How the data were processed

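Both tissues came from the same embryos, per the labels' protocols, and the small RNA amounts were amplified by the Ovation Pico method. The authors deposited log2 values made with Affymetrix Expression Console and RMA, per the submitters' processing notes. Versions, the array definition and the genome build are not given in the sources used here. RMA equalises arrays, so differences are relative to other genes.

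Of 25429 rows, 24675 had 1 symbol in the platform table and 754 had none and were not used. All 164 members were found by Entrez number in a RefSeq table of assembly GRCm38.p6, used for names, pseudogene status, chromosomes and order only. Genes above the array median on at least 4 of 8 arrays (12416) were fitted with limma 3.58.1 in R 4.3.3 (lmFit, eBayes with trend and robust estimation), with terms for tissue and for replicate number, and adjusted by Benjamini-Hochberg. The code was tested on simulated data. Slides and scan dates were not used here. The number of arrays limits precision, and p-values reflect array-to-array spread, which may be technical. Rows chosen for naming were all constant regions, members past the filter, the 5 greatest and 5 lowest differences and the 3 widest ranges within a tissue. Listed T cell genes by lowest p and neighbours of the loci were chosen as well. Not all of these are printed, and several members past the filter are left out. Some listed genes, such as Ets1 and Gata3, were named apart from this rule. Further alpha J rows were named after their values were seen. Members and lists were chosen with earlier results of these data known.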

Additional observations from a re-analysis of the deposited data

Results flagged for a closer look

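Among the 48 members chosen for naming by rule, each tissue's 4 values were searched for a value far from the other 3 by Dixon's ratio of gap to range. Chance gives about 1 in 20 groups, and 6 of 96 groups (6.25%) were found. In Traj18, dorsal replicate 1 stood at 6.59, the other dorsal arrays at 2.27 to 2.72. In Traj50, ventral replicate 4 stood at 6.35, the others at 5.62 to 5.73. Ventral replicate 1 was low in Traj58 (4.48, the others up to 4.96) and in Trav6d-4 (5.66, the others up to 6.38). Dorsal replicate 4 was low in Trbv12-1 (3.78, the others up to 3.91) and in Trgc2 (2.35, the others up to 2.67). The search left out the alpha J rows named after their values were seen, so the 6.25% does not cover them. Among these, Traj22 had ventral replicate 2 at 6.40 and the other ventral arrays at 2.09 to 2.58. Traj61 had ventral replicate 4 at 3.66 and the other ventral arrays at 2.02 to 2.16.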

How the results depend on the processing

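Trac differed by 5.85 to 7.07 with 1 replicate number left out and by 5.57 with values floored at the array median. Members called were 0 with the replicate block, 1 (Trac) with no replicate block, 1 with a random replicate block and 1 with the stricter filter. Among all genes, these fits called 0, 4 and 4 of 12416 and 10 of 6090. Members called were 0 to 2 with 1 replicate number left out (Trac and Traj18 without number 1). They were 0 to 1 with no replicate block and 1 array left out (Trac without ventral 1, dorsal 1 or dorsal 4). Of all 12416 genes, 9 were called without number 1, and 20, 8 and 9 without ventral 1, dorsal 1 and dorsal 4. The other fits with a number or an array left out called 0 genes. Members tested were 39, or 164 with no filter and 12 with the stricter filter. Same-numbered arrays deviated together at r = 0.11, 0.03, 0.02 and 0.12, so 2 of 4 were over 0.1 and the numbers are not shown to pair embryos. No T cell list gene was called in any of these fits. Only 4 of the 28 entered the main fit, and no fit called more than 20 genes, so nothing is read from this.

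Of the 164 members 99 had a higher ventral mean. With values floored at the array median 32 did, 26 were lower and 106 sat at the floor on all arrays, and the alpha median became -0.0027. The 15 alpha J rows with a ventral array apart became 9 with that floor, 22 with a gap of 0.5, 8 with a gap of 2, and 11 to 14 without 1 replicate number (11 to 17 without 1 array). The dorsal count of 1 was 2 with a gap of 0.5, 0 with a gap of 2, and 0 to 2 with a replicate number or an array left out (0 without dorsal 2 or number 2, 2 without ventral 1, ventral 4 or number 4). The gaps were chosen after seeing the data. Traj11 differed by 3.22 to 4.98 without 1 replicate number. For these changes the cause was not tested. The medians by locus and over all members moved with these changes, and several changed sign. Without 1 replicate number the median over all members lay between 0.0057 and 0.0682, beta's between -0.0477 and 0.0242 and gamma's between 0.0156 and 0.0546. Delta's lay between -0.0939 and -0.0121, and reached 0.0133 without ventral 4. With the floor all of these medians became -0.0027, since most rows sit at the floor.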
